A study of Mus musculus with 9 samples.

Results

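The comparison described here set the livers of ethanol-fed mice labelled with Mettl3 overexpression against those of pair-fed wild-type mice, the arm of the study in which the diet, the alcohol binge and the transgene all differ between the groups. Its members were chosen by their labels, 3 pair-fed and 3 Mettl3 ethanol-fed livers, which are 6 of the 9 RNA-seq libraries of the study. The deposited values come as one table for each of the other contrasts, so the Mettl3 ethanol-fed columns and the pair-fed columns were joined on the gene identifier. The tables held 16842 and 16470 genes, of which 16266 were in both and 10229 reached 1 FPKM in at least 3 of the 9 libraries and were tested. FPKM is the number of fragments per kilobase of transcript, scaled to the library's total.

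The study put a vector into mice to raise Mettl3 in the liver before alcohol feeding. In the text that came with the series, wild-type mice were injected through the tail vein with AAV8-TBG-MCS-3×FLAG-WPRE, the empty vector, or AAV8-TBG-Mettl3-3×FLAG-WPRE. AAV8 is a viral serotype that reaches the liver, and TBG is the thyroxine-binding globulin promoter, which is active in hepatocytes. After 3 weeks the mice were given a control or an ethanol diet for 10 days and then a single binge, of maltose in the control arm and of ethanol in the others. Pair-fed livers carry the labels WT and Pair-fed, and Mettl3 ethanol-fed livers carry the labels Mettl3 overexpression and Ethanol-fed. The 3 remaining libraries are livers labelled WT and Ethanol-fed, which were used to estimate the spread and to set values side by side. The sample labels do not name the vector that each WT mouse received, nor strain, sex, age or the animal behind each library. The p-values given here measure the spread between these libraries.

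Mettl3 encodes the catalytic subunit of the complex that writes N6-methyladenosine (m6A) into messenger RNA, a mark that reader proteins use to change the splicing, decay or translation of a transcript. The liver oxidises ethanol through alcohol dehydrogenase, the cytochrome P450 CYP2E1 and catalase, and the resulting acetaldehyde through aldehyde dehydrogenases. In the same cells PPARα drives fatty acid oxidation, SREBP proteins drive fatty acid and cholesterol synthesis, inflammatory cytokines drive the acute phase proteins through STAT3, and unfolded proteins in the endoplasmic reticulum (ER) raise chaperones through ATF6 and XBP1.

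The 6 compared libraries held 36960232 to 38159563 counted reads. The first principal component of log2(FPKM + 1) took 70.8% of the variance and placed the pair-fed livers at -35.6, -42.5 and -44.2 and the Mettl3 ethanol-fed livers at 35.3, 41.1 and 7.99. Mettl3 ethanol-fed liver 3 therefore lay nearer to the pair-fed livers than its group did. Over the 1094 genes that changed by 2-fold or more, its median position was 71.2% of the way from the pair-fed mean to the Mettl3 ethanol-fed mean, against 109% and 118% for livers 1 and 2. The ethanol-fed livers labelled WT stood at 51.6%, 89.7% and 85.4% on the same scale. Much of the distance was thus also seen in livers without the Mettl3 label. Each count below was also made without Mettl3 ethanol-fed liver 3. The 50 most abundant genes took 36.6% to 39.1% of the reads in pair-fed and 43.3% to 47.7% in Mettl3 ethanol-fed livers.

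**Figure D1:**
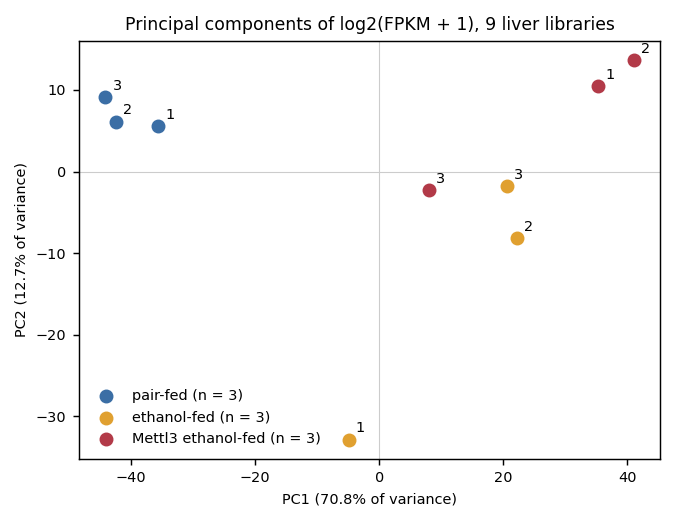
Scores of the 9 libraries on the first (x axis) and second (y axis) principal components of log2(FPKM + 1) over the genes tested, with the share of variance on each axis. Points are single livers, numbered by replicate and coloured by group. Pair-fed livers lie at -35.6 or lower on the first component, and Mettl3 ethanol-fed liver 3, at 7.99, lies apart from livers 1 and 2 at 35.3 and 41.1.

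Mettl3 (Entrez 56335, chromosome 14, 52294841 to 52308741, GRCm38.p6), the gene carried by the vector, was measured first. It stood at 3.97, 3.10 and 3.38 FPKM in pair-fed livers 1 to 3 and at 38.5, 25 and 33.3 in Mettl3 ethanol-fed livers 1 to 3. Every library labelled Mettl3 overexpression was above every other library, the ethanol-fed livers included (5.44, 4.86 and 3.78), so the labels held at this gene. The increase over pair-fed livers was 2.87 on the log2(FPKM + 1) scale (SE 0.17, adjusted p = 0.000139). Here and below, fold changes are on that scale, which understates the change of genes at low level, and adjusted p-values are from limma with Benjamini-Hochberg adjustment over all 10229 genes. Reads of the vector's Mettl3 and of the mouse gene cannot be told apart in a gene-level value.

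Of the 12 tested writers and erasers of m6A, 4 rose and 1 fell, and the median log2 fold change was 0.17. Of the same 12, 7 rose and 0 fell after median-ratio scaling. Beside Mettl3 itself, the writer-complex subunits Zc3h13 (3.21 ± 0.448 to 11.9 ± 7.80 FPKM, mean ± SD, n = 3 livers per group here and below), Virma (3.72 to 5.34) and Rbm15b (2.70 to 4.0) rose. Mettl14, the partner that METTL3 needs for activity, stood at 2.63 ± 0.197 and 2.66 ± 0.239 FPKM and did not pass the test. The demethylase Fto fell from 8.0 ± 0.218 to 6.57 ± 0.491 FPKM. Among 10 tested readers, Igf2bp2, which stabilises methylated transcripts, rose (0.46) and Fmr1, an RNA-binding translational repressor, fell (-0.37). Igf2bp2 averaged 0.475 FPKM in pair-fed and 1.04 in Mettl3 ethanol-fed livers, so it reached the level needed for testing mostly through the ethanol-fed groups. After median-ratio scaling 5 of the 10 readers rose and 0 fell. Without any 1 of the pair-fed livers or without Mettl3 ethanol-fed liver 2, 2 members of the writer list rose. The call of Zc3h13 was lost without any 1 library other than Mettl3 ethanol-fed liver 3 (adjusted p = 0.0889 to 0.172), that of Rbm15b without any 1 pair-fed liver or Mettl3 ethanol-fed liver 2 (0.0501 to 0.107), and that of Fto without any 1 library other than Mettl3 ethanol-fed liver 3 (0.0863 to 0.137) and after median-ratio scaling (-0.01, adjusted p = 0.905). Igf2bp2 lost its call without pair-fed liver 2 or 3 or Mettl3 ethanol-fed liver 2 (adjusted p = 0.0639 to 0.0796), and Fmr1 without pair-fed liver 1 or 2 or Mettl3 ethanol-fed liver 1 or 2 (0.0617 to 0.0752) and after median-ratio scaling (-0.14, adjusted p = 0.276).

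Nearly as many genes passed the test as did not. In all, 4996 of 10229 genes (48.8%) passed at an adjusted p below 0.05, of which 1424 (13.9% of the genes tested) rose and 3572 (34.9%) fell in Mettl3 ethanol-fed livers. The counts of every list are to be read beside these shares. A gene under 1 FPKM in every pair-fed liver could be tested only through higher values in the ethanol-fed groups. Derl3, Cyp2b10 and Fst below are such genes, and for them the filter favoured a rise. The groups of 3 livers did not overlap for 63.6% of the genes tested. Changes of 2-fold or more were seen for 354 genes that rose and 740 that fell, and the median over all genes was -0.18. Lower calls made up 71.5% of calls on deposited FPKM, but 46.1% after scaling by the median ratio of each library (2587 rose, 25.3% of genes tested, and 2212 fell, 21.6%), which raised the median of all genes by 0.23. The larger share of reads in the 50 most abundant genes moved with this split, and its part in the split was not tested. Without Mettl3 ethanol-fed liver 3, 1605 genes (15.7%) rose and 4081 (39.9%) fell, 459 and 1048 of them by 2-fold or more.

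**Figure D2:**
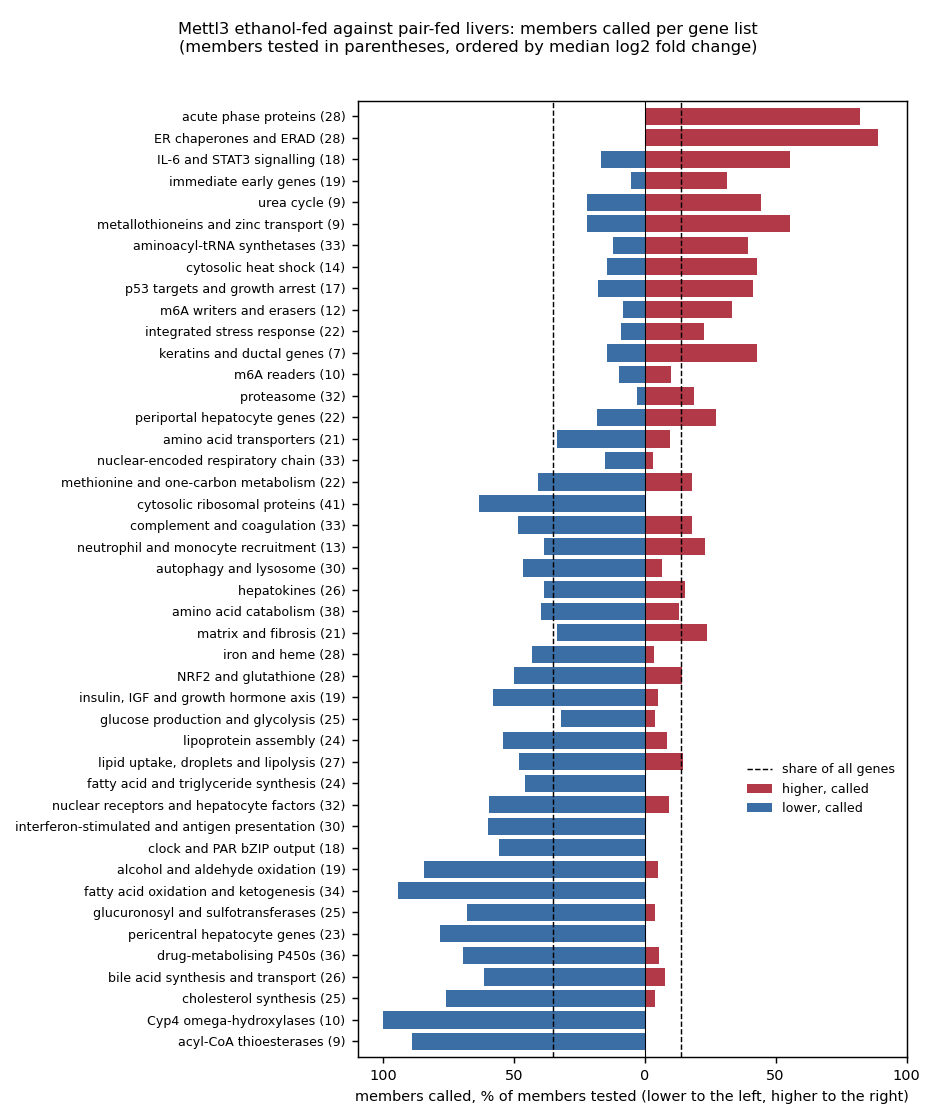
Share of the tested members of each gene list that passed the test (x axis, %; lower in Mettl3 ethanol-fed livers to the left in blue, higher to the right in red), with the number of members tested in parentheses and lists ordered by median log2 fold change (y axis). Dashed lines mark the shares over all genes tested, 34.9% lower and 13.9% higher. Acute phase proteins and ER chaperones lie at the top and acyl-CoA thioesterases and Cyp4 omega-hydroxylases at the bottom.

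The genes that rose most were serum amyloid, lipocalin and metallothionein genes, and those that fell most included acyl-CoA thioesterases, the acyl-CoA synthetase Acsl1 and the sterol exporter Abcg8. Arrdc3, an arrestin-domain gene, fell from 52.6 ± 6.29 to 3.09 ± 0.687 FPKM (a log2 fold change of -3.72 with an SE of 0.31, adjusted p = 0.000181). Upp2, a uridine phosphorylase, went from 20.2, 35.2 and 36.9 FPKM in pair-fed livers to 1.18, 0.965 and 2.41 in Mettl3 ethanol-fed livers. The groups were far apart, with liver 3 the highest of its group. The kinase gene Sgk2 (log2 fold change -3.02), Coq8a, which supports coenzyme Q synthesis (-3.16), Keg1, a glycine N-acyltransferase-like gene (-2.99), the ubiquitin ligase subunit Fbxo21 (-2.86) and the apolipoprotein L gene Apol7a (-2.83) were outside the lists and among the 15 largest decreases. Outside the lists and among the 15 largest increases were Tifa, an adaptor of NF-κB signalling (3.65), and the galactosyltransferase B3galt1 (3.42). One gene, E030018B13Rik, was listed at 0 in all pair-fed livers and at 9.33, 8.09 and 4.13 FPKM in Mettl3 ethanol-fed livers. No gene was listed at 0 in all Mettl3 ethanol-fed livers and at 1 FPKM or more in all pair-fed livers.

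**Figure D3:**
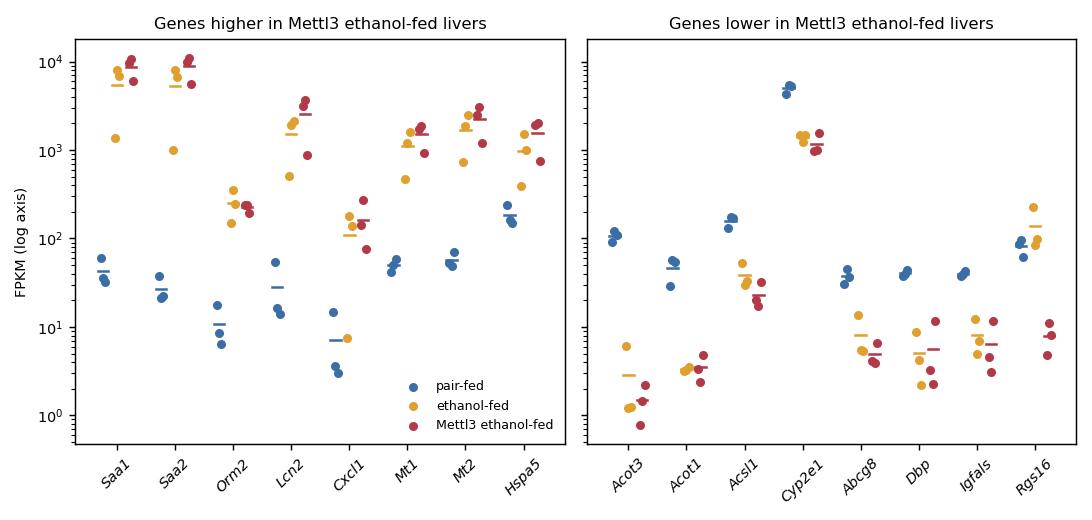
FPKM of 16 genes (y axis, log axis) in each liver, for genes higher (left) and lower (right) in Mettl3 ethanol-fed livers. Points are single livers and lines are group means (n = 3). For Saa1 every Mettl3 ethanol-fed liver is at or above 5954 FPKM and every pair-fed liver at or below 60.1, and for Acot3 the order is the reverse.

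Acute phase proteins, which hepatocytes secrete under inflammatory cytokines, had the highest median log2 fold change of the lists. Of 28 tested, 23 rose and none fell, with a median log2 fold change of 1.90. Saa1 (Entrez 20208, chromosome 7, 46740497 to 46743181), serum amyloid A, stood at 60.1, 36.1 and 32.2 FPKM in pair-fed livers and at 9659, 10706 and 5954 in Mettl3 ethanol-fed livers (a log2 fold change of 7.65 with an SE of 0.60, adjusted p = 0.000168). Its near copy Saa2 (chromosome 7, 46751833 to 46754313), with which it can share reads, went from 37.2, 21.3 and 22.4 to 9929.7, 11020.2 and 5642 FPKM (log2 fold change 8.30). In both genes Mettl3 ethanol-fed liver 3 was the lowest of its group and still above every pair-fed liver by a wide margin. Lcn2, lipocalin 2, which binds bacterial siderophores, was at 53.7, 16.3 and 13.9 and 3125, 3681 and 882 FPKM (a log2 fold change of 6.49 with an SE of 0.73, adjusted p = 0.000617). Pair-fed liver 1 was the highest of its group in all 3 genes, and the groups did not overlap.

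The other acute phase proteins included abundant secreted proteins, which rose less in ratio than Saa1 and Saa2. Fgb, the fibrinogen β chain, went from 4153 ± 949 to 14456 ± 2189.8 FPKM (log2 fold change 1.81), and Fga and Fgg, the other chains, rose by 2.06 and 1.89. Hp, haptoglobin, which binds free haemoglobin, went from 1571 ± 333 to 7789 ± 1682 FPKM, and Hpx, hemopexin, which binds free heme, from 1640.4 ± 207 to 7418 ± 1957 FPKM. The protease inhibitor Serpina3n rose by 3.88 (240.2 to 3519.6 FPKM), and the orosomucoids Orm1 and Orm2 by 2.88 and 4.36. Steap4, a metalloreductase, rose by 3.44. Hamp, the iron hormone hepcidin and a member of the same list, did not follow it, at 1506 ± 97.1 and 750.3 ± 205 FPKM (log2 fold change -1.04, adjusted p = 0.202). The ethanol-fed livers, which share the pair-fed livers as reference, averaged 5405 FPKM for Saa1, 1516 for Lcn2 and 10061 for Fgb.

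Signalling genes upstream of the acute phase rose more often than they fell, whereas all genes tested fell more often (13.9% rose and 34.9% fell). Of 18 tested genes of IL-6 and STAT3 signalling, 10 rose and 3 fell (median 0.62). The 6 members with the smallest p are named here, and they do not mirror that balance. The transcription factors Cebpd (1.45), Cebpb (0.81) and Junb (1.54) rose, while Lifr, the receptor of leukaemia inhibitory factor, fell from 20.8, 24.2 and 28.6 to 10.5, 7.88 and 10.1 FPKM. The Lifr groups did not overlap, and liver 3 was not the extreme of its group. Jak2 (-0.52), the kinase below these receptors, and Socs2 (-1.39), an inhibitor of growth hormone signalling, also fell. The count of members that rose dropped to 5 without pair-fed liver 2 and to 6 without pair-fed liver 3 or Mettl3 ethanol-fed liver 2.

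Of 33 complement and coagulation genes tested, 6 rose and 16 fell (median -0.34), with 6 and 10 after median-ratio scaling. C8a, a chain of the membrane attack complex, rose from 55.4, 48.1 and 52.7 to 108, 94.8 and 101 FPKM, with no overlap, and the carboxypeptidase Cpb2 rose by 1.06. Mbl2, mannose-binding lectin (-1.12), Klkb1, plasma kallikrein (-1.96), F13b, a factor XIII subunit (-0.87), and C1ra, a protease of the first complement component (-0.68), fell. Without pair-fed liver 2, 3 members rose.

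Of 13 tested recruitment genes, 3 rose and 5 fell. The share that fell was near that of all genes tested (34.9% fell and 13.9% rose). Cxcl1, a neutrophil chemoattractant, stood at 14.6, 3.60 and 3.04 FPKM in pair-fed and 142, 271 and 76.9 in Mettl3 ethanol-fed livers (a log2 fold change of 4.45 with an SE of 1.08, adjusted p = 0.0093), with the lowest Mettl3 ethanol-fed liver above the highest pair-fed liver. Ccl6 (1.68) and the adhesion molecule Icam1 (1.27) rose. Cxcl12 (-1.08), Cxcl9 (-1.24) and Ccl24 (-0.97), chemokines for lymphocytes or eosinophils, fell, and 3 members fell without pair-fed liver 1 or 2 or Mettl3 ethanol-fed liver 2. Of 6 tested neutrophil markers, 5 rose and none fell. A marker under 1 FPKM in every pair-fed liver could be tested only through higher values in the ethanol-fed groups. The count therefore does not weigh rises evenly against falls. S100a8 and S100a9, the subunits of calprotectin, rose from 1.02, 2.07 and 3.29 to 24.4, 27.6 and 14 and from 5.14, 3.61 and 5.59 to 43.8, 65.2 and 31.4 FPKM. The summed level of all neutrophil markers was 7.86 to 12 FPKM in pair-fed and 49.9 to 108 in Mettl3 ethanol-fed livers, and the defining genes Ly6g and Ngp stayed under the level needed for testing, Ngp being listed at 0 in all pair-fed livers. The granule genes Mpo, Elane, Camp and Ltf were not in both tables and were not analysed here. Only 2 neutrophil markers rose without any 1 of the pair-fed livers or of Mettl3 ethanol-fed livers 1 and 2. In these bulk samples a change in the number of cells of a type and in RNA per cell cannot be told apart, here and for every gene below.

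Interferon-stimulated and antigen presentation genes fell more often than they rose, as did all genes tested (34.9% fell and 13.9% rose). Of 30 tested, 18 fell and none rose (median -0.66), with 12 lower and 1 higher after median-ratio scaling. Irf7, the transcription factor that amplifies type I interferon, went from 23.7, 22.3 and 20.6 to 8.43, 5.89 and 11.3 FPKM. No liver of one group reached the other. B2m, the light chain of MHC class I, fell (log2 fold change -0.65, adjusted p = 0.00305), and Irf1 (-0.81) and the interferon-induced GTPases Igtp (-1.29) and Gbp7 (-0.96) fell too. The count depended on single libraries: 8 fell without pair-fed liver 1 or 2, 11 without pair-fed liver 3, 9 and 7 without Mettl3 ethanol-fed livers 1 and 2, and 20 without liver 3.

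ER chaperones and components of ER-associated degradation (ERAD) rose nearly throughout. Of 28 tested, 25 rose and none fell, with a median log2 fold change of 1.37. Hspa5 (Entrez 14828, chromosome 2, 34772090 to 34776529), which encodes BiP, the main chaperone of the ER lumen, was at 238, 160.5 and 150.0 FPKM in pair-fed livers and at 1893, 2013 and 759 in Mettl3 ethanol-fed livers (a log2 fold change of 2.98 with an SE of 0.51, adjusted p = 0.00234). Liver 3 was the lowest of the Mettl3 ethanol-fed livers and above every pair-fed liver. Creld2, a disulfide isomerase-like protein, went from 19.6, 10.7 and 11.1 to 335, 407 and 94.8 FPKM, and Sdf2l1, an ER chaperone cofactor, from 5.34, 3.20 and 3.49 to 109, 115 and 35.9 FPKM. In both, as for Hspa5, Mettl3 ethanol-fed liver 2 was the highest and liver 3 the lowest of the group, with log2 fold changes of 4.04 and 3.98. Manf, a secreted stress protein (3.02), Dnajb11, a BiP co-chaperone (2.07), P4hb, a protein disulfide isomerase (0.99), and Sec11c, a signal peptidase subunit (0.80), rose. Xbp1, a transcription factor of the unfolded protein response, went from 80.4, 63.2 and 60.1 to 185, 216 and 150.2 FPKM (log2 fold change 1.42, adjusted p = 0.00163). Derl3, an ERAD channel component, was at 0.377, 0.483 and 0.280 and 53.9, 40.3 and 4.25 FPKM and had the largest spread of log2(FPKM + 1) among Mettl3 ethanol-fed livers of all genes that passed. Its call was lost without any 1 library other than Mettl3 ethanol-fed liver 3 (adjusted p = 0.0587 to 0.0874).

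Promoters of the chaperone genes were read because the members moved together. In RefSeq windows of GRCm38.p6 from 250 bases before to 50 bases after the annotated start, the ER stress element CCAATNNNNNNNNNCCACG, searched on both strands, was found for 16 of 8280 tested genes with a window (0.193%). Among the 23 ER list members with a window it was found for 9 (39.1%), and among the 20 of them that rose for 8 (40%). Both the list and the element were chosen for their known link to ER stress. The share in the list therefore does not rest on the changes measured here, and it was not tested. The other members with a window did not hold it, and Canx, a carrier, did not pass the test between the groups (adjusted p = 0.0933). The elements of the 9 carriers are printed in full, 5′ to 3′ in the element's own direction, with the fixed bases in capitals.

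Hspa5, 65 to 47 bases before the start: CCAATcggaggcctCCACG
Calr, 162 to 144 bases before the start: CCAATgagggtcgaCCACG
Derl3, 156 to 138 bases before the start: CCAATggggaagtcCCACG
Hsp90b1, 212 to 194 bases before the start: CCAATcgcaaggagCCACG
Hsp90b1, 107 to 89 bases before the start: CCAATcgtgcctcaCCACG
Canx, 145 to 127 bases before the start: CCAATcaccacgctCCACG
Pdia6, 98 to 80 bases before the start: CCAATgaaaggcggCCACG
Dnajc3, 105 to 87 bases before the start: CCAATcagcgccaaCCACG
Creld2, 126 to 108 bases before the start: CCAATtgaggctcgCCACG
Syvn1, 44 to 26 bases before the start: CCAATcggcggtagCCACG

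Hsp90b1 carried 2 elements, and those of Calr, Derl3 and Creld2 and the nearer one of Hsp90b1 lie on the strand opposite to the gene. Of the 16 genes with the element, 11 rose, none fell and 5 did not pass. Of all genes tested, 13.9% rose and 34.9% fell. The 9 ER list members among the 16 were already counted above, so the pooled count is not separate from that list. Outside the ER list 7 genes carried the element, of which 4 did not pass. Acnat2, an acyltransferase (1.57), Alg12, a mannosyltransferase of N-glycan assembly (1.76), and Ero1b, an ER oxidase (1.34), rose. None of 20 integrated stress response genes and none of 22 acute phase genes with a window held these letters. The 250 bases before the start are given for Hspa5, Creld2 and Syvn1, 3 carriers with large increases, on the gene's own strand with the element or its reverse complement in capitals.

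Hspa5, chr2:34771840-34772089, plus strand: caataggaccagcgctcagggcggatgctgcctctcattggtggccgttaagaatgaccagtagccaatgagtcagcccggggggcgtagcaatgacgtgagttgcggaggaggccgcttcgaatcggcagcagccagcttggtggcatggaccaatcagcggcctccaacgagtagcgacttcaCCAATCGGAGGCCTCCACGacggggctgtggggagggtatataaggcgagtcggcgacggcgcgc
Creld2, chr15:88819396-88819645, plus strand: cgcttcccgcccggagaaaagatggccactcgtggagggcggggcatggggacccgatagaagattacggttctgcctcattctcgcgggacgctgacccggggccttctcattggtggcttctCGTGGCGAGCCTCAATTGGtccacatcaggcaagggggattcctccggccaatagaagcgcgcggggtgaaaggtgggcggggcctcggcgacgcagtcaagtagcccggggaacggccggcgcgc
Syvn1, chr19:6046326-6046575, plus strand: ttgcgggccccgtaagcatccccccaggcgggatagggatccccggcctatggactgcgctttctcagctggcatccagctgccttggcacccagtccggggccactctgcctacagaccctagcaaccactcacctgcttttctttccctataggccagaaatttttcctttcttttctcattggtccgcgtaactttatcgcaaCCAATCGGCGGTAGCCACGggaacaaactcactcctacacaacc

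A match is a description of the sequence and not a site of binding. The spaced palindrome TTCNNNGAA, recognised by STAT proteins, was found in 7 of 22 acute phase windows (31.8%) and in 8.22% of all windows. Among the acute phase members that rose it was found in 5 of 17 (29.4%). The core of the unfolded protein response element, TGACGTGG, was found in 0 of 23 ER list windows and in 1.07% of all windows. The metal response core, TGCACNC or TGCGCNC, was found in 6 of 7 metallothionein and zinc transport windows (85.7%) and in 39.8% of all windows. Among the members of that list that rose it was found in 3 of 4 (75%).

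**Figure D4:**
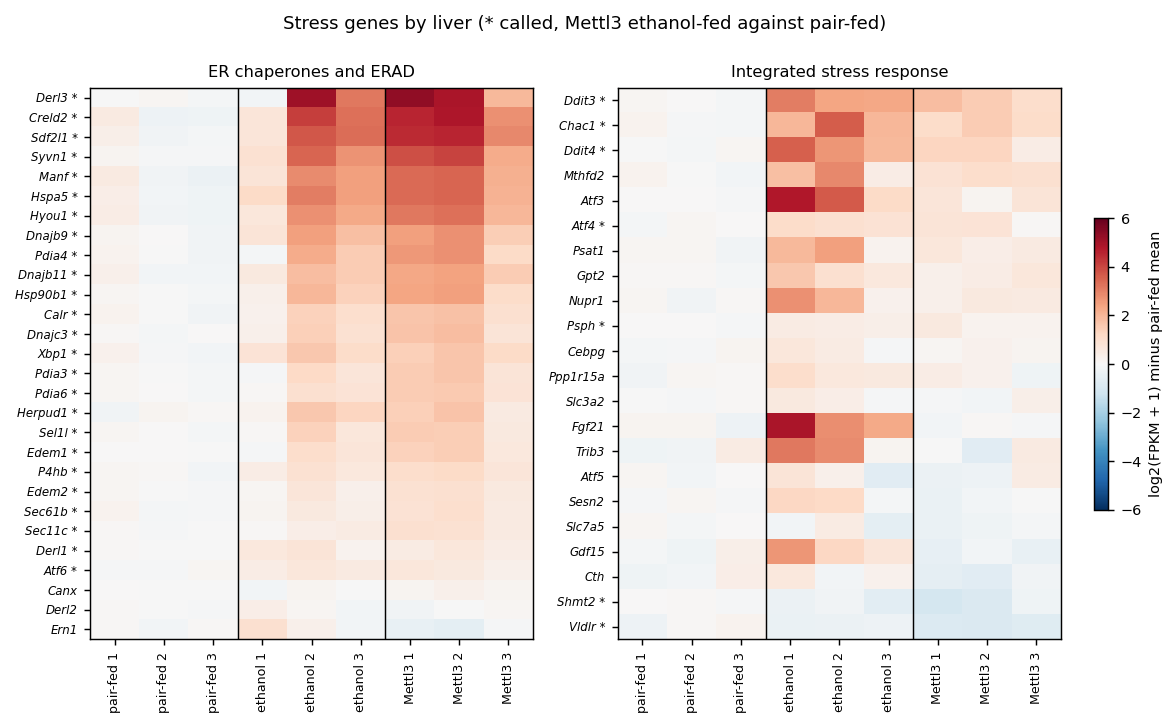
Difference of log2(FPKM + 1) from the pair-fed mean (colour) for each tested ER chaperone and ERAD gene (left) and integrated stress response gene (right), in each of the 9 livers (x axis). Asterisks mark genes that passed the test between Mettl3 ethanol-fed and pair-fed livers. The Mettl3 ethanol-fed columns are red for most chaperone genes and pale for Fgf21, Trib3 and Gdf15.

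The integrated stress response, in which ATF4 raises amino acid and stress genes, gave fewer calls than the chaperones. Of 22 tested, 5 rose and 2 fell (median 0.17). Ddit3, which encodes CHOP, rose from 2.57, 2.28 and 1.99 to 10.8, 8.46 and 5.86 FPKM, with no overlap, while the ethanol-fed livers stood at 26, 16 and 15.4. Shmt2, a mitochondrial serine enzyme (-0.73), and Vldlr, a lipoprotein receptor (-0.81), fell, Shmt2 not without Mettl3 ethanol-fed liver 1 or 2 (adjusted p = 0.0507 in both). Only 1 or 2 members rose without any 1 library other than Mettl3 ethanol-fed liver 3. The hormone gene Fgf21 stood at 6.53, 6.66 and 4.48 FPKM in pair-fed livers and 5.13, 6.25 and 5.40 in Mettl3 ethanol-fed livers, and these groups overlapped (log2 fold change -0.05, adjusted p = 0.947). In ethanol-fed livers it was 205, 45.9 and 31.4 FPKM, but the difference between the ethanol-fed groups, -3.37, did not pass (adjusted p = 0.138). Trib3, a pseudokinase induced by this response, averaged 2.39 ± 1.03, 17.9 ± 13.6 and 2.37 ± 1.39 FPKM in pair-fed, ethanol-fed and Mettl3 ethanol-fed livers, and its difference between the ethanol-fed groups did not pass either (adjusted p = 0.363).

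Of 14 cytosolic heat shock genes tested, 6 rose and 2 fell (7 and 1 after median-ratio scaling). Bag3, a co-chaperone of selective autophagy (1.60), Hsp90aa1, the inducible HSP90 (0.92), and Chordc1, its cofactor (0.54), rose. The other member that fell besides Hsp90ab1 was Dnajb1, whose call was lost without any 1 library other than Mettl3 ethanol-fed liver 3, and also after median-ratio scaling. Hsp90ab1, the constitutive HSP90, fell from 299, 323 and 324 to 142, 160.5 and 249.6 FPKM without overlap. Of 19 immediate early genes, 6 rose and 1 fell (2 without pair-fed liver 1). Btg2, an antiproliferative gene that is also a p53 target, rose from 2.28, 2.77 and 1.73 to 23.5, 22.8 and 12.4 FPKM, and the groups did not overlap. The related Btg1 fell (-0.87), and Jund (0.91) and Jun (0.84), AP-1 subunits, rose. Of 17 p53 targets, 7 rose and 3 fell. Cdkn1a, which encodes the cell cycle inhibitor p21, rose from 2.10, 1.97 and 0.990 to 23, 22.3 and 6.0 FPKM (a log2 fold change of 2.58 with an SE of 0.46, adjusted p = 0.00282), and Gadd45g, a stress gene, rose by 2.52. Sesn1, a sestrin, fell (-1.05).

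Metallothioneins, small proteins that bind zinc and copper, were among the largest increases. Mt1 went from 42.1, 49.9 and 58.1 to 1726, 1888 and 936 FPKM and Mt2 from 52.2, 49 and 69.9 to 2492, 3038 and 1216 FPKM, with log2 fold changes of 4.84 (SE 0.43) and 5.19 (SE 0.46). Mettl3 ethanol-fed liver 3 was again the lowest of its group and above all pair-fed livers. Slc39a14, a zinc importer that responds to inflammation, rose by 1.70, and Slc30a10, a metal exporter, by 0.84. The importers Slc39a5 (-0.92) and Slc39a8 (-0.85) fell, so that 5 of 9 tested members rose and 2 fell.

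Genes of antioxidant defence fell more often than they rose, as did all genes tested (34.9% fell and 13.9% rose). Of 28 tested NRF2 and glutathione genes, 4 rose and 14 fell (median -0.41), with 4 and 10 after median-ratio scaling. Sod1, cytosolic superoxide dismutase, went from 975, 1004 and 1090.4 to 546, 605 and 661 FPKM, and Prdx6, a peroxiredoxin, from 176, 189 and 180.4 to 67, 72.6 and 108 FPKM. Neither gene had overlapping groups. The glutathione transferases Gsta3 (-1.34) and Gstm1 (-0.87) fell. Hmox1, heme oxygenase 1, rose from 14.5, 15.1 and 15.6 to 31.4, 32 and 33.2 FPKM (adjusted p = 0.00131). The count of members that rose was 2 without pair-fed liver 1 and 1 without pair-fed liver 2 or 3 or Mettl3 ethanol-fed liver 2.

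The mRNA of most genes of alcohol and aldehyde oxidation was lower. The list also holds aldehyde dehydrogenases with other substrates, such as Aldh5a1. Of 19 tested genes of alcohol and aldehyde oxidation, 16 fell and 1, Adh7, rose, with a median of -0.75. After median-ratio scaling 11 fell, and Adh7 lost its call without pair-fed liver 3 or Mettl3 ethanol-fed liver 2 (adjusted p = 0.0531 in both). Cyp2e1 (Entrez 13106, chromosome 7, 140763819 to 140774990), the inducible ethanol-oxidising P450, stood at 4319.5, 5423 and 5322 FPKM in pair-fed and 966, 995 and 1551 in Mettl3 ethanol-fed livers (a log2 fold change of -2.13 with an SE of 0.19, adjusted p = 0.000212). Every pair-fed liver was above every Mettl3 ethanol-fed liver, of which liver 3 was the highest. Adh1, the main hepatic alcohol dehydrogenase, went from 1488, 1489 and 1621 to 681, 739 and 814 FPKM, and Adh4 from 49.3, 54.7 and 54.9 to 8.12, 7.29 and 18.3 FPKM. Their groups did not overlap, at log2 fold changes of -1.04 and -2.25. Aldh3a2, fatty aldehyde dehydrogenase (-2.83), Aldh5a1, succinic semialdehyde dehydrogenase (-0.85), and Cat, catalase (-1.53), fell. The mRNA of ethanol-fed livers, compared with the same pair-fed livers, averaged 1395 FPKM for Cyp2e1, 865 for Adh1 and 8.21 for Adh4.

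Genes of fatty acid oxidation fell nearly as a whole list. Of 34 tested genes 32 fell and none rose, with a median of -0.89, and 30 fell after median-ratio scaling. Slc25a20, which carries acylcarnitine into mitochondria, went from 91.2, 97.6 and 92.8 to 44.1, 45.1 and 44.1 FPKM (a log2 fold change of -1.06 with an SE of 0.08, adjusted p = 0.000168). Acaa1b, a peroxisomal thiolase, went from 301, 401 and 354 to 65.2, 66.3 and 100.5 FPKM (log2 fold change -2.19). In both genes the groups were far apart, and for Slc25a20 the Mettl3 ethanol-fed livers lay close together. The acyltransferase Crat (-1.88), the pantetheinase Vnn1 (-1.67) and the peroxisome division gene Pex11a (-1.54) fell. Ppara, the receptor that activates much of this list, fell from 41, 50.4 and 46.4 to 7.73, 16.5 and 23 FPKM. It did not overlap between groups, and its log2 fold change was -1.60 (adjusted p = 0.00535). Pdk4, which restrains pyruvate oxidation, was 1 of the 2 tested members that did not pass, at 7.51 ± 1.62 and 4.90 ± 3.90 FPKM (log2 fold change -0.72, adjusted p = 0.151).

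Acyl-CoA thioesterases, which release free fatty acids from coenzyme A, held the largest decrease of all. Of 9 tested, 8 fell and none rose (median -1.54), with 8 lower and 1 higher after median-ratio scaling. Acot3 (Entrez 171281, chromosome 12, 84052144 to 84060400) was at 91.6, 122 and 109 FPKM in pair-fed and 0.777, 1.46 and 2.23 in Mettl3 ethanol-fed livers (a log2 fold change of -5.48 with an SE of 0.42, adjusted p = 0.000168). Its neighbours Acot1 and Acot4 on chromosome 12 went from 29.4, 56.5 and 54.1 to 3.32, 2.37 and 4.86 and from 31.4, 43.8 and 37.5 to 3.20, 3.98 and 6.46 FPKM. The lowest pair-fed liver was above the highest Mettl3 ethanol-fed liver in all 3 genes, as their naming among the 15 largest decreases required. Acot12, a cytosolic acetyl-CoA thioesterase, fell (log2 fold change -2.0), while Acot9 did not pass. These copies resemble each other, and how reads were divided between them is not known. All 10 tested Cyp4 genes, which hydroxylate fatty acids at their end carbon, fell (median -1.20), and 8 of 10 after median-ratio scaling. Cyp4a14 went from 401, 639 and 680.1 to 261, 166 and 260.4 FPKM and Cyp4f15 from 53.5, 65.2 and 64.2 to 10.3, 7.90 and 31.1 FPKM, both without overlap. Acsl1, which activates fatty acids to acyl-CoA, was also among the 15 largest decreases, from 132, 176 and 169.6 to 19.97, 17.1 and 32.4 FPKM.

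**Figure D5:**
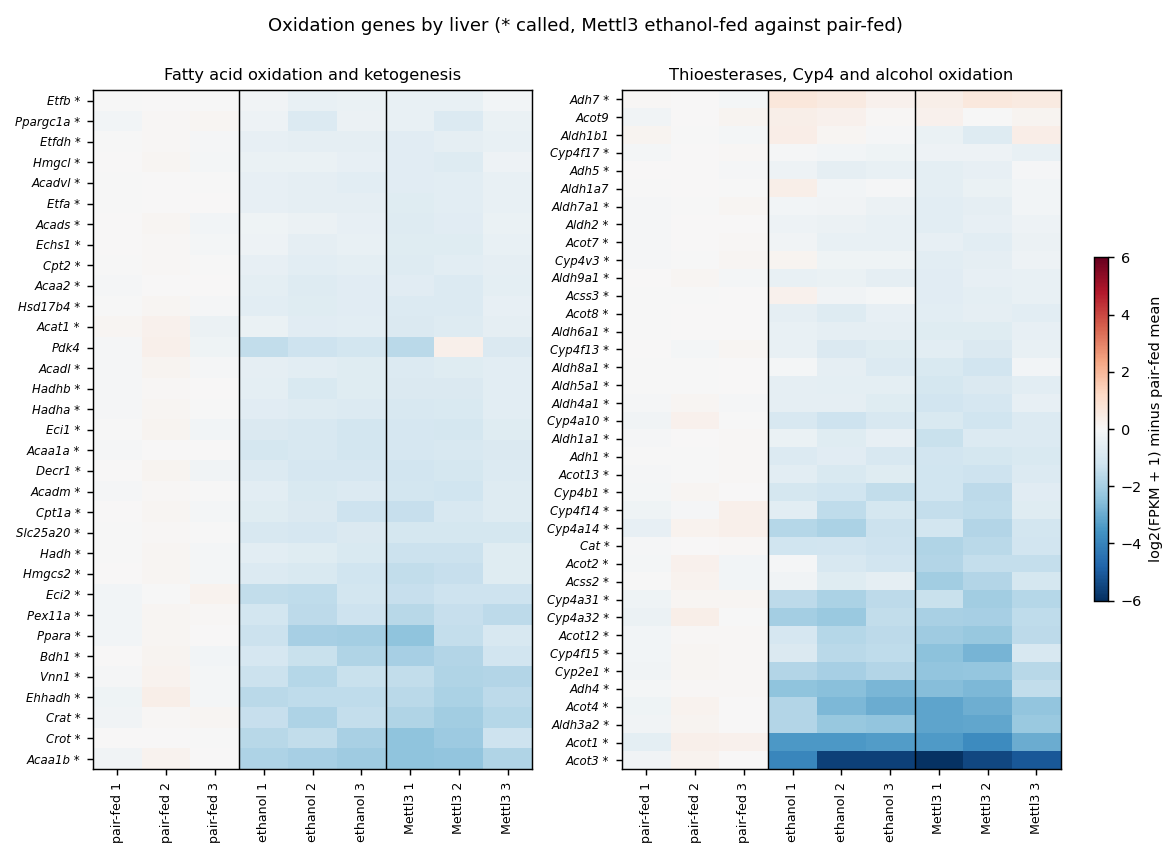
Difference of log2(FPKM + 1) from the pair-fed mean (colour) for 33 of the 34 tested genes of fatty acid oxidation and ketogenesis (left) and each tested gene of the thioesterase, Cyp4 and alcohol oxidation lists (right), in each of the 9 livers (x axis). Asterisks mark genes that passed the test between Mettl3 ethanol-fed and pair-fed livers. Nearly all rows are blue in the Mettl3 ethanol-fed columns, most of all Acot3, while Acot9 is pale, Adh7 is red and Pdk4 is blue in livers 1 and 3 and pale in liver 2.

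Genes of lipid synthesis moved down only in part. Of 24 fatty acid and triglyceride synthesis genes tested, 11 fell and none rose (median -0.62), with 9 lower and 3 higher after median-ratio scaling and 3 higher without Mettl3 ethanol-fed liver 1. Srebf1, the transcription factor SREBP-1, went from 41.1, 45.7 and 40.7 to 5.54, 4.78 and 16.1 FPKM (a log2 fold change of -2.33 with an SE of 0.44, adjusted p = 0.00332). Fads2, the Δ6-desaturase, went from 224, 318 and 285 to 40.1, 47.5 and 108 FPKM, and Gpam, which starts glycerolipid synthesis, from 25.6, 29.5 and 28 to 7.57, 5.72 and 14.2 FPKM. None of these groups overlapped, and Mettl3 ethanol-fed liver 3 was the highest of its group in each. Fads1 (-1.33), the Δ5-desaturase, and Mlxipl (-1.38), the glucose-sensing factor ChREBP, fell. Fasn, fatty acid synthase, had overlapping groups at 43.4, 33.3 and 26.1 and 32.4, 43.9 and 94 FPKM and did not pass (adjusted p = 0.262).

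Of 27 tested genes of lipid uptake, droplets and lipolysis, 4 rose and 13 fell (5 and 9 after median-ratio scaling). Fabp1, the liver fatty acid binding protein, went from 8401, 10113 and 7696 to 2803, 2454 and 3368 FPKM (log2 fold change -1.61), and the fatty acid transporter Slc27a2 from 623, 727 and 698 to 248, 231 and 302 FPKM (-1.39). Neither overlapped. Hsd17b11, a droplet protein (-1.34), and the lipases Lipc (-1.01) and Lipe (-0.84) fell. Of 24 lipoprotein genes, 2 rose and 13 fell. Abcg5 and Abcg8, the paired sterol exporters, went from 47.5, 61.8 and 60.8 to 13.6, 10.6 and 17.4 and from 31, 44.7 and 37.1 to 4.14, 3.89 and 6.61 FPKM and did not overlap. Scarb1, the HDL receptor (-1.10), and the apolipoproteins Apoa2 (-0.65), Apoh (-0.73) and Apom (-0.61) fell. Abca1, which loads cholesterol onto HDL, and Apoa4 were the members that rose.

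Genes of cholesterol synthesis were mostly lower. Of 25 tested genes 19 fell and 1, Sqle, rose (median -0.98), with 14 and 2 after median-ratio scaling. Sqle, squalene epoxidase, had overlapping groups and lost its call without pair-fed liver 2 or 3 or Mettl3 ethanol-fed liver 1 or 2 (adjusted p = 0.0792 to 0.123). Fdft1, squalene synthase, went from 8.46, 9.32 and 8.44 to 1.87, 2.35 and 2.01 FPKM (a log2 fold change of -1.67 with an SE of 0.13, adjusted p = 0.000168). Every pair-fed liver was above every Mettl3 ethanol-fed liver. Nsdhl (-1.61) and Tm7sf2 (-1.08), later enzymes, and Stard4, a sterol carrier (-1.40), fell.

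Bile acid genes fell together with drug-metabolising enzymes. Of 26 tested genes of bile acid synthesis and transport, 16 fell and 2 rose (median -0.95), and 22 fell without Mettl3 ethanol-fed liver 3. The number that rose was 1 without pair-fed liver 2 or Mettl3 ethanol-fed liver 2. Abcb11, the bile salt export pump, went from 111, 103 and 144 to 43.9, 39.1 and 56.8 FPKM, and Abcc2, the canalicular exporter of conjugates, from 96.3, 135 and 140.0 to 31.8, 32.8 and 41.3 FPKM. Liver 3 was the highest of its group for both, below every pair-fed liver. Hsd3b7, an early synthesis enzyme (-1.16), and Abcc3, a basolateral exporter (-1.25), fell, and Slc51b, a subunit of the basolateral bile acid exporter, rose (1.25). Cyp7a1, the rate-limiting enzyme of bile acid synthesis, stood at 45, 30.01 and 31.9 FPKM in pair-fed and 0.262, 0.219 and 31.9 in Mettl3 ethanol-fed livers. Liver 3 lay within the pair-fed range, and the gene did not pass (log2 fold change -3.28, adjusted p = 0.0634), whereas without liver 3 it did (-4.86, adjusted p = 0.00361).

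Of 36 drug-metabolising P450 genes tested, 25 fell and 2 rose (median -0.93). Cyp2a5, which oxidises coumarin, went from 414, 559.5 and 619 to 83.1, 138 and 122 FPKM (a log2 fold change of -2.22 with an SE of 0.27, adjusted p = 0.000726), and Cyp2c23 from 114, 156 and 155 to 24.8, 21.9 and 53 FPKM. Cyp2b10, the classic target of the receptor CAR, went the other way, from 0.355, 0.389 and 0.401 to 5.36, 4.67 and 5.58 FPKM, and did not overlap. Nr1i3, which encodes CAR, fell from 148, 158 and 164 to 28.9, 23 and 59.2 FPKM. Cyp1a2 (-1.61), Cyp3a25 (-1.79) and Cyp2r1, a vitamin D 25-hydroxylase (-1.30), fell. Of 25 glucuronosyl- and sulfotransferase genes, 17 fell and 1, Sult1a1, rose, a call that was lost without pair-fed liver 1 or 2 or Mettl3 ethanol-fed liver 1 (adjusted p = 0.0589 to 0.0676). After median-ratio scaling 2 rose and 16 fell. Papss2, which makes the sulfate donor (-1.38), Ugt1a1, which conjugates bilirubin (-1.0), Sult1c2 (-1.89) and Ugt2b34 (-1.37) fell. Members of these families resemble each other and can share reads.

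Glucose and glycogen genes were called at shares no higher than those of all genes on deposited FPKM. Of 25 glucose and glycogen genes tested, 8 fell and 1, Ldha, rose, with 7 lower and 6 higher after median-ratio scaling. The call of Ldha, lactate dehydrogenase, was lost without any 1 library other than pair-fed liver 1 (adjusted p = 0.0655 to 0.16). Ppp1r3b, a glycogen-targeting phosphatase subunit, went from 30.2, 38.1 and 33.2 to 9.46, 6.38 and 21.4 FPKM. Its groups did not overlap. Pdk2, which inhibits pyruvate dehydrogenase (-1.97), Gys2, liver glycogen synthase (-1.40), Ppp1r3c (-1.37) and Pgm1, phosphoglucomutase (-1.04), fell.

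In the insulin, IGF and growth hormone axis 11 of 19 genes fell and 1 rose (10 and 2 after median-ratio scaling). Igfbp1, an IGF-binding protein induced by fasting and stress, was the member that rose, from 23.3, 57.4 and 26.9 to 478, 690.3 and 159 FPKM (a log2 fold change of 3.46 with an SE of 0.50, adjusted p = 0.00134). Igfals, which stabilises circulating IGF complexes, fell from 37.5, 40.1 and 43 to 4.60, 3.11 and 11.7 FPKM. Both genes had groups well apart. Igfbp2 (-1.35), the prolactin receptor Prlr (-1.11) and Cux2, a female-biased hepatic factor (-1.86), fell. Of 26 hepatokine genes, 4 rose and 10 fell (6 and 8 after median-ratio scaling). On deposited FPKM this was near the shares of all genes tested (13.9% and 34.9%). Fst, follistatin, which binds activins, rose from 0.322, 0.383 and 0.436 to 5.32, 2.55 and 2.40 FPKM. Its groups did not overlap, with Mettl3 ethanol-fed liver 1 the highest. Ttr, transthyretin (-0.70), Angptl6 (-1.27) and Lect2 (-0.73) fell. Alb, albumin, did not pass, at 44062 ± 1902 and 34029 ± 3646 FPKM (adjusted p = 0.0576).

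Of 22 methionine and one-carbon genes tested, 4 rose and 9 fell (5 and 6 after median-ratio scaling). On deposited FPKM this was near the shares of all genes tested (13.9% and 34.9%). Mat1a, which makes S-adenosylmethionine, the methyl donor of METTL3, rose from 910.5, 912 and 955 to 2478, 2084 and 2466 FPKM (a log2 fold change of 1.34 with an SE of 0.12, adjusted p = 0.000257). Nnmt, which methylates nicotinamide, rose from 17.2, 8.20 and 13 to 162, 150.0 and 114 FPKM, and Bhmt, which remethylates homocysteine, from 741, 613 and 529 to 2242, 1823 and 1998 FPKM. None of these overlapped. Mthfd1, a folate enzyme (-1.06), Chdh, choline dehydrogenase (-1.06), and Gamt, which uses methyl groups to make creatine (-1.36), fell. Without Mettl3 ethanol-fed liver 1 or 2, 4 or 5 members fell. The summed level of the list was 3687.4 to 4125.3 FPKM in pair-fed and 6059.9 to 7058.4 in Mettl3 ethanol-fed livers. In ethanol-fed livers it was 6273.5 to 7887.8 FPKM, and 0 members passed the test between the ethanol-fed groups.

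Of 38 tested amino acid catabolism genes, 5 rose and 15 fell, near the shares of all genes tested (13.9% and 34.9%). Without Mettl3 ethanol-fed liver 3, 23 fell. Tat, tyrosine aminotransferase, rose from 135, 147 and 193 to 515, 371 and 413 FPKM, and Csad, which makes taurine precursors, fell from 57.7, 62.5 and 66.6 to 12.3, 7.25 and 15.5 FPKM. Both were free of overlap. Sdsl, a serine dehydratase-like gene (1.41), and Kmo, of tryptophan breakdown (0.55), rose, and Glud1, glutamate dehydrogenase (-0.83), and Afmid (-1.28) fell. In the urea cycle 4 of 9 genes rose and 2 fell (5 and 1 after median-ratio scaling). Arg1, arginase, rose from 620.4, 608 and 602 to 1419, 1262 and 1464 FPKM, and Asl, argininosuccinate lyase, by 1.25. The aspartate-glutamate carrier Slc25a13 fell (log2 fold change -1.40). Of 21 amino acid transporters, 2 rose (1 without pair-fed liver 2) and 7 fell, shares no higher than those of all genes. Among those that fell were Slc38a4 (-1.32) and the taurine transporter Slc6a6 (-1.55). After median-ratio scaling 4 rose and 5 fell. Of 28 iron and heme genes, 1, Hmox1, rose (2 without Mettl3 ethanol-fed liver 3) and 12 fell, among them Bmp6, the inducer of hepcidin (-0.95), and Id1, a target of BMP signalling (-1.31). After median-ratio scaling 3 rose and 10 fell.

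Circadian output genes were lower. Of 18 tested, 10 fell and none rose (median -0.69), with 9 lower and 2 higher after median-ratio scaling. Dbp, a bZIP factor under direct clock control, went from 37.8, 39.4 and 44.1 to 3.23, 2.24 and 11.6 FPKM (a log2 fold change of -2.89 with an SE of 0.51, adjusted p = 0.00265). Nr1d1, the repressor REV-ERBα, went from 40.8, 40.5 and 49 to 12.1, 17.4 and 18.8 FPKM. Both were apart between groups, with liver 3 the highest of the Mettl3 ethanol-fed livers. Usp2 (-1.70), Tef (-1.22), Hlf (-1.81) and Cry2 (-0.91) fell. The time of day at which tissue was taken is not given in the sources used here.

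Transcription factors of hepatocyte identity fell more often than they rose, as did all genes tested (34.9% fell and 13.9% rose). Of 32 tested, 3 rose and 19 fell. Cebpa, a factor of the mature hepatocyte, went from 78.3, 76.1 and 102 to 39.2, 35 and 52.6 FPKM, and Onecut2 from 16.7, 16.8 and 18.3 to 8.92, 10.2 and 10.00 FPKM, both without overlap. Thrb, a thyroid hormone receptor (-0.56), Nr5a2 (-0.75) and Foxa1 (-0.72) fell. Hnf4a, a master regulator of the hepatocyte, had overlapping groups at 120.0 ± 18.9 and 135 ± 4.95 FPKM and did not pass (adjusted p = 0.338).

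Genes of the pericentral zone fell while those of the periportal zone moved both ways. Of 23 pericentral genes tested, 18 fell and none rose (median -0.93), with 15 lower after median-ratio scaling. Znrf3, a Wnt target and feedback inhibitor, went from 2.07, 2.86 and 2.95 to 0.739, 0.608 and 1.12 FPKM, and Rgn, regucalcin, from 619.8, 699 and 708 to 272, 296 and 345 FPKM. The groups did not overlap. Glul, glutamine synthetase, which marks the last cells around the central vein, did not pass (596 ± 26.3 and 513 ± 25.6 FPKM, adjusted p = 0.242). Of 22 periportal genes 6 rose and 4 fell (7 and 3 after median-ratio scaling). Sds, serine dehydratase, rose by 1.07, while Hsd17b6 (-2.17) and Pigr, the immunoglobulin receptor of bile (-0.74), fell. The number of periportal genes that fell was 2 without pair-fed liver 3 or Mettl3 ethanol-fed liver 1 or 2 and 7 without Mettl3 ethanol-fed liver 3.

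Lists of the general cell machinery were counted in the same way, and their counts depended on the scaling. Of 41 ribosomal protein and elongation factor genes tested, 26 fell and none rose, but the median was only -0.31, and 3 fell and 1 rose after median-ratio scaling. Rpl22 (-0.77) and the elongation factor Eef2 (-0.65) fell most clearly, and 13 to 15 members fell without any 1 library other than Mettl3 ethanol-fed liver 3. Of 33 aminoacyl-tRNA synthetases, 13 rose and 4 fell (2 without pair-fed liver 1, 1 without Mettl3 ethanol-fed liver 1 or 2), against 21 and 2 after median-ratio scaling. Nars, which charges asparagine, rose from 45.7, 38 and 40.4 to 89.4, 109 and 70.3 FPKM, and Rars, for arginine, and Farsb, for phenylalanine, rose by 0.97 and 0.76. Of 33 nuclear-encoded respiratory chain genes, 1, Cycs (cytochrome c, 0.57), rose and 5 fell, a count that was 1 without any 1 other library and 18 without Mettl3 ethanol-fed liver 3. After median-ratio scaling 3 rose and 0 fell. Of 32 proteasome genes, 6 rose, among them Psmc4 (0.44), and 1, the regulator Nfe2l1, fell (-0.61), with 14 and 0 after median-ratio scaling. The number of proteasome genes that rose was 2 without pair-fed liver 2 or Mettl3 ethanol-fed liver 1 and 3 without pair-fed liver 3. Of 30 autophagy and lysosome genes 2 rose and 14 fell (5 and 6 after median-ratio scaling). Gabarapl1, which coats autophagosomes, went from 188, 217 and 273 to 38.6, 44.8 and 62.6 FPKM without overlap, and Lipa, lysosomal acid lipase, fell (log2 fold change -1.45). Without pair-fed livers 2 and 3 in turn, 9 and 8 autophagy members fell.

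Markers of the other liver cell types gave a mixed picture. Of 12 hepatocyte markers 2 rose and 3 fell, against 13.9% and 34.9% of all genes tested. Only 1 rose without pair-fed liver 1 or 2 or Mettl3 ethanol-fed liver 1 or 3. After median-ratio scaling 2 rose and 2 fell. Their summed level was 62875 to 69037 FPKM in pair-fed and 48699 to 57767 in Mettl3 ethanol-fed livers. Of 14 Kupffer cell markers, which label resident macrophages, 12 fell and none rose, and their summed level went from 416 to 480.3 to 195 to 339 FPKM. Adgre1, which encodes F4/80, went from 7.96, 10.7 and 9.77 to 3.69, 2.26 and 5.22 FPKM and Clec4f, a lectin restricted to these cells, from 39.7, 43.9 and 43.3 to 25.5, 19.8 and 27.9 FPKM. Both were apart between the groups. The count of Kupffer markers that fell was 8 (with 2 higher) after median-ratio scaling and 7 without pair-fed liver 2, pair-fed liver 3 or Mettl3 ethanol-fed liver 2. Of 14 sinusoidal endothelial markers 8 fell and 1, Lyve1, rose, from 5.32, 4.87 and 3.85 to 19.1, 19.9 and 9.71 FPKM. After median-ratio scaling 3 rose and 4 fell. The number that fell was 4 without Mettl3 ethanol-fed liver 1 and 5 without pair-fed liver 2 or 3 or Mettl3 ethanol-fed liver 2. Of 12 stellate markers 7 fell and 1, Hgf (hepatocyte growth factor), rose. After median-ratio scaling 1 rose and 4 fell. The platelet markers in both tables stayed under the level needed for testing, and of the T, NK, B and plasma cell markers 3 were tested. How far these cell types take part in the immune gene changes was not tested.

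Of 21 matrix and fibrosis genes 5 rose and 7 fell (6 and 4 after median-ratio scaling). On deposited FPKM the share that fell was near that of all genes tested (34.9% fell and 13.9% rose). Fn1, fibronectin, which hepatocytes also secrete, rose by 0.68, and Col4a2, of basement membranes, by 0.67, while Ccn1, a matricellular protein, fell from 3.02, 3.54 and 3.71 to 0.342, 0.345 and 1.94 FPKM. Fewer matrix genes fell without pair-fed liver 1 or Mettl3 ethanol-fed liver 2 (3) and without pair-fed liver 2 or Mettl3 ethanol-fed liver 1 (4). Of 7 keratin and ductal genes 3 rose and 1, Krt19, fell, a call that was lost without any 1 library other than pair-fed liver 3 (adjusted p = 0.054 to 0.143) and after median-ratio scaling (0.268). After median-ratio scaling 3 rose and 0 fell. Krt18 and Krt8, the keratin pair of hepatocytes, went from 81.4, 65.6 and 56 to 227, 204 and 177 and from 54.7, 54.3 and 40.04 to 122, 105 and 77.6 FPKM. Neither keratin overlapped between the groups.

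The last question was where the Mettl3 ethanol-fed livers departed from the ethanol-fed livers, which is also the test of the difference between both groups' changes from the shared pair-fed livers. Only 3 of 10229 genes (0.0293%) passed it, Mettl3 itself, Rgs16 and Tcim, while 1249 had an unadjusted p below 0.05. Rgs16 (Entrez 19734, chromosome 1, 153740353 to 153745468), a regulator of G-protein signalling, stood at 86.1, 97.2 and 61.4 FPKM in pair-fed, 227, 85.1 and 99.7 in ethanol-fed and 4.76, 11.1 and 8.08 in Mettl3 ethanol-fed livers. All 3 Mettl3 ethanol-fed livers were below all 6 others. The difference was -3.87 from ethanol-fed livers (SE 0.39, adjusted p = 0.0156) and -3.24 from pair-fed livers (SE 0.39, adjusted p = 0.000709). Tcim, a transcriptional and immune response regulator, was at 12, 12.8 and 11.9 FPKM in pair-fed, 39.8, 26.3 and 26.9 in ethanol-fed and 12.4, 9.83 and 11.8 in Mettl3 ethanol-fed livers. The pair-fed and Mettl3 ethanol-fed values overlapped (log2 fold change -0.11, adjusted p = 0.591), and both lay below every ethanol-fed value. Among genes that also changed from pair-fed livers, those closest to passing were C8a (0.75, adjusted p = 0.116) on the higher side and Fnip2, a folliculin partner (-0.79, adjusted p = 0.116), Bhlhe40, a clock-linked repressor (-1.19, adjusted p = 0.136), and the water channel Aqp8 (-1.40, adjusted p = 0.138) on the lower side. Leaving out 1 library gave 1 gene without pair-fed liver 1 or Mettl3 ethanol-fed liver 1 or 3, 2 without pair-fed liver 2 or 3, and 3 without Mettl3 ethanol-fed liver 2. Tcim was in none of these sets (adjusted p = 0.0792 to 0.163), and Rgs16 was lost without pair-fed liver 1 (0.0577) or Mettl3 ethanol-fed liver 1 (0.0837) or 3 (0.0792).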

How the data were processed

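Gene expression was measured by RNA-seq of bulk liver in 9 libraries, 3 per group. The authors deposited FPKM per gene and library, together with base means, a signal that the authors made by dividing read counts by size factors and averaging, per the file headers. The submitters' processing notes name fastp, HISAT2, HTSeq and the build mm10. Tool versions, the strand setting and the gene lengths used are not given in the sources used here. FPKM from the deposited tables was joined on the gene number, and the ethanol-fed columns, which both tables hold, differed by at most 1.08e-06 in relative terms. No per-sample column was left unmapped (0).

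Values were tested as log2(FPKM + 1) with limma 3.58.1 in R 4.3.3 (moderated by mean trend, robust), in 1 fit of all 9 libraries, for genes at 1 FPKM or more in at least 3 libraries. Calls are at a Benjamini-Hochberg adjusted p below 0.05 over the 10229 genes tested. Whole reads could be recovered from base mean and FPKM for 100% of values at a tolerance of 0.05 reads and gave the library totals. Simulated data had as many libraries and genes, independent normal spread per gene and few genes changed, evenly up and down. On these the fit recovered 80.4% of 2-fold and 97.4% of 4-fold changes, and 5.07% of its calls were false. No displaced library and no shift of scale were simulated, so these values do not measure the error of the calls made here. Promoter sequences and coordinates are RefSeq on GRCm38.p6, matched by gene number for 16054 of 16266 genes. Tables and figures used Python 3.11.15, numpy 2.4.6, pandas 2.3.3 and matplotlib 3.10.9.

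The gene lists, the tests and the compared groups were chosen with earlier results of these data known, and lists are described by counts and medians with no test of the list. Named genes were Mettl3, the 15 largest changes in each direction without overlap, up to 6 members of each list with the smallest p, the 5 most variable called genes, and the 5 closest to a difference from ethanol-fed livers in each direction. Results for some genes that this rule names are not reported here. Genes named outside this rule were chosen after their values were seen: further acute phase proteins, carriers of the ER stress element, cell type markers, members named as the exception of a count, Ppara, Tcim, and genes that did not pass. Alternatives were a pseudocount of 0.1, no filter, a filter on whole groups, median-ratio scaling, a fit of the 6 libraries, a replicate block, limma-voom on recovered reads, and leaving out each library.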

Additional observations from a re-analysis of the deposited data

Results flagged for a closer look

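For 3 genes the change from pair-fed livers differed between Mettl3 ethanol-fed and ethanol-fed livers by a test of the difference itself (limma, adjusted over 10229 genes, n = 3 livers per group). Mettl3 differed by 2.54 on the log2(FPKM + 1) scale (adjusted p = 0.001), and over the alternatives the adjusted p lay between 0.000156 and 0.0085. Rgs16 differed by -3.87 (adjusted p = 0.0156), all 3 Mettl3 ethanol-fed livers being below the 3 ethanol-fed livers. Over the alternatives its adjusted p lay between 0.0108 and 0.0843, and it no longer passed when pair-fed liver 1 (0.0577) or Mettl3 ethanol-fed liver 1 (0.0837) or 3 (0.0792) was left out, or with the replicate block (0.0843). Tcim differed by -1.36 (adjusted p = 0.0384), again with no overlap between those groups. Over the alternatives its adjusted p lay between 0.0108 and 0.163, and it no longer passed when any 1 of the 6 libraries compared here was left out (0.0792 to 0.163), with no filter on low values (0.0908) or with the replicate block (0.0843).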

How the results depend on the processing

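Of the 231 called genes named in the text none changed sign under any alternative, and 13 lost the call without at least 1 library. Most of them were named for a large change or a small p in the main fit, which favours stable calls. Of all genes called, 3402 were also called without Mettl3 ethanol-fed liver 2. The number of genes called, 4996, lay between 3435 without Mettl3 ethanol-fed liver 2 and 5686 without Mettl3 ethanol-fed liver 3, and from 4472 to 5825 under the other settings. Genes that rose by 2-fold or more, 354, became 566 after median-ratio scaling, and those that fell, 740, became 426 after that scaling, 1204 with a pseudocount of 0.1 and 1275 with limma-voom on recovered reads, which called 5018 genes. Without 1 library the range was 275 to 459 higher and 554 to 1048 lower. Median-ratio scaling shares 3636 calls with the deposited scale. The count of genes that differed from ethanol-fed livers, 3, was 1 with the replicate block and 1 to 3 without 1 library. The fit of the 6 libraries gives no value for that count.

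The replicate block gave 4472 calls. Same-numbered pair-fed and Mettl3 ethanol-fed livers deviated from their group means with correlations of 0.0475, -0.0498 and 0.094, and only the livers numbered 3 correlated best with their own number, so the numbers were not taken to pair the livers.

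Genes that did not pass changed sign as follows, and for these the cause was not tested. After median-ratio scaling the log2 fold change was 0.18 for Fgf21, 0.05 for Glul, 0.14 for Tcim and 0.12 for Trib3. Without 1 library it ranged from -0.21 to 0.03 for Fgf21, from -0.04 to 0.05 for Mettl14 and from -0.35 to 0.27 for Trib3.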
